A study of Sus scrofa with 21 samples.

Results

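SELE, SELP, VCAM1, ICAM1, CXCL8, CCL2, IL6 and NFKBIA are genes that activated endothelium, the cell layer lining blood vessels, uses to recruit leukocytes. They were looked up by symbol in a pig RNA sequencing table of 24358 genes. Of the 8 genes, 7 were found, and no identifier carried the symbol SELE, so SELE was not analysed here.

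The study took RNA from the vessel wall of pigs (Sus scrofa) through a catheter and sequenced 21 libraries from 3 pigs. A 3D-printed microbrush gave 10 libraries from peripheral arteries, 5 of the kidney and 5 of the liver. A Nitinol wire without a brush, the negative control, gave 4 libraries from the same pigs and kinds of vessel. Surgically taken aorta, the positive control, gave 4 libraries, and blood gave 3. Microbrush libraries 1, 2, 3, 5 and 10 were from the kidney, and 4, 6, 7, 8 and 9 from the liver. Wires 2 and 4 were from the kidney, and wires 1 and 3 from the liver. Pig 243K gave microbrush 2, 5, 6, 9 and 10, wires 1 and 4, and bloods 1 and 2. Pig 248K gave microbrush 1, 3, 4, 7 and 8, wires 2 and 3, and blood 3. Breed, age and any treatment of the animals are not given in the sources used here. All 4 aorta libraries came from pig 237053, which gave no other library, so in every comparison with aorta the pig and the tissue cannot be told apart. Libraries of the same pig are not separate animals, and p-values measure the spread between libraries, which may be partly technical.

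Library totals ran from 1144932 to 10188552 estimated counts for the microbrush, from 1946286 to 11128400 for the wire and from 1603229 to 3033008 for aorta. Bloods 1 and 3 held 5301288 and 3224540. Blood 2 held 5634 counts, none of them in the 7 genes, which allows up to 532 counts per 1000000 for each, so it stands outside the values below. Some of the other 20 libraries stood apart. Microbrush 4 had a count in 3831 genes, wire 2 in 9714 and wire 3 in 10165, while the 4 aorta libraries had a count in 19357 to 20028. In wire 3 the endothelial marker CDH5 stood at 0.186 CPM (counts per 1000000) and NOS3 and EMCN at 0, while KDR stood at 634.5 and PECAM1 at 436.4. In wire 2 NOS3 and EMCN were also at 0, with CDH5 at 3.75 CPM. In microbrush 4 CDH5 and NOS3 were at 0, with KDR at 302.7 CPM. Calls of members and of related genes that involve the wire are also given without wires 2 and 3.

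Recruitment of leukocytes begins when cytokines such as tumour necrosis factor or interleukin 1 activate the transcription factor NF-kappa-B in endothelial cells. E-selectin and P-selectin, encoded by SELE and SELP, slow passing leukocytes. ICAM1 and VCAM1 then bind leukocyte integrins, which stops the cells on the wall. CXCL8 and CCL2 encode chemokines that attract neutrophils and monocytes. IL6 encodes a cytokine of the acute response, and NFKBIA encodes the inhibitor that holds NF-kappa-B in the cytoplasm and is itself induced by it. P-selectin is also stored in platelets, and NFKBIA is expressed in many cell types. In bulk RNA of this kind, fewer cells of a type and less RNA per cell cannot be told apart.

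In the RefSeq annotation of Sscrofa11.1, SELP (ENSSSCG00000006288) lies on chromosome 4 from 81376804 to 81401240. SELE is annotated beside it, from 81289061 to 81299657. VCAM1 (ENSSSCG00000006862) is also on chromosome 4, from 117496914 to 117511211. ICAM1 (ENSSSCG00000013655) lies on chromosome 2 from 69097136 to 69107722. CXCL8 (ENSSSCG00000008953) lies on chromosome 8 from 69932646 to 69935861, and CCL2 (ENSSSCG00000017723) on chromosome 12 from 40798109 to 40800013. IL6 (ENSSSCG00000020970) lies on chromosome 9 from 91506421 to 91510830. NFKBIA (ENSSSCG00000001952) lies on chromosome 7 from 64508119 to 64510754. Counts were summed over each whole gene, so exons and isoforms were not separated.

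Levels below are CPM after scaling the 20 larger libraries by the trimmed mean of M-values (TMM). They compare libraries for a given gene, not genes with each other, since they are not divided by gene length. Group values are the mean ± SD over libraries. Fold changes are on the log2 scale with a standard error (SE), from edgeR's quasi-likelihood test. A gene was called when its p, Benjamini-Hochberg adjusted over all genes tested in that comparison, was under 0.05.

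**Figure D1:**
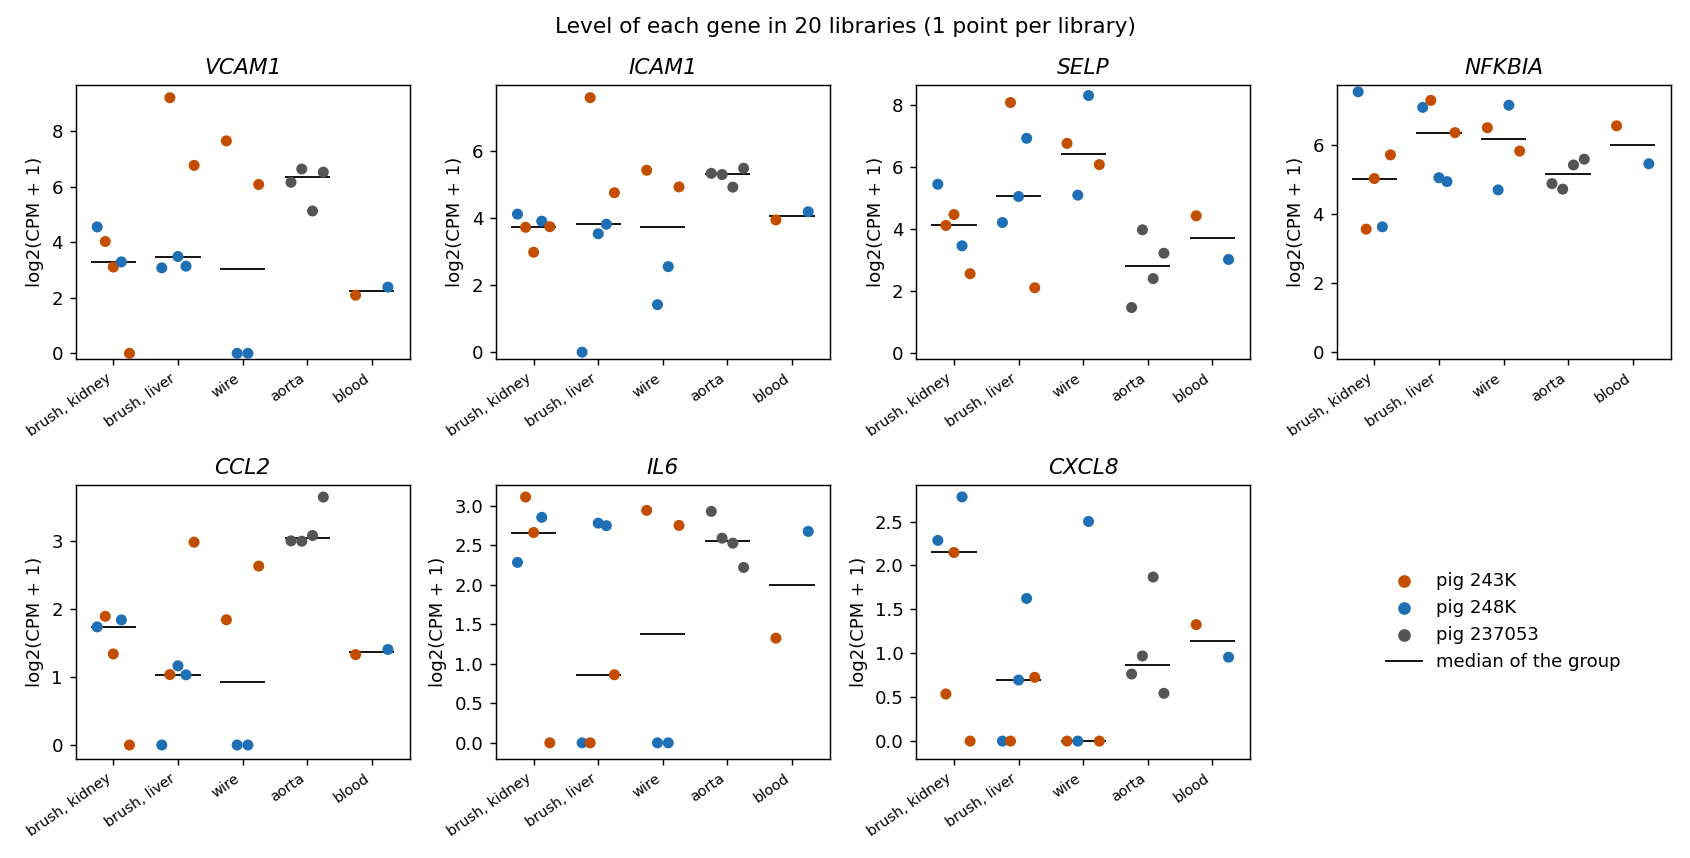
Levels of the 7 genes, as log2(CPM + 1) on the y axis, in 20 libraries grouped on the x axis as kidney microbrush, liver microbrush, wire, aorta and blood. Each point is a library, its colour is the pig and the line is the group's median. VCAM1 spans 0 to 589 CPM in the microbrush libraries and 33.9 to 98.7 CPM in aorta.

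SELP encodes P-selectin, and its levels separated the wires from both reference tissues. The 4 wire libraries held 106.8, 32.9, 313 and 66.0 CPM for wires 1 to 4. The 4 aorta libraries held 1.74, 14.6, 4.24 and 8.24 CPM, and bloods 1 and 3 held 20.3 and 7.04 CPM. Every wire lay above every aorta and blood library. The microbrush libraries ranged from 3.27 CPM in microbrush 9 to 268 CPM in microbrush 6, with a median of 19.2, and overlapped all 3 other groups. The means were 53.4 ± 82.7 CPM for the microbrush (n = 10), 130 ± 126 for the wire (n = 4), 7.21 ± 5.61 for aorta (n = 4) and 13.7 ± 9.41 for blood (n = 2). In descending order the groups were wire, microbrush, blood and aorta, and the neighbours in that order overlapped.

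SELP was higher in wire than in aorta by 4.51 on the log2 scale (SE 0.928), with an adjusted p of 0.0231 by edgeR. It was the single one of the 6 genes tested that was called there (CXCL8 did not pass the filter on low counts). Of all genes tested, 3.57% were called in either direction with 2.8% called higher and 0.764% lower in wire. The call was lost without any single aorta library. Adjusted p-values were 0.101 without aorta 1, 0.064 without aorta 2, 0.0934 without aorta 3 and 0.081 without aorta 4. In the same order, those fits called 0.486%, 0.399%, 1.3% and 1.33% of all genes. The call was also lost in a common fit of all libraries, at 4.15 with an adjusted p of 0.0769. That fit called 0.746% of all genes. Without wires 2 and 3 the difference was 3.56, with an adjusted p of 0.00222, in a fit that called 8.47% of all genes.

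Between wire and blood, edgeR called 0 of the 5 genes tested. SELP stood at 3.51 on the log2 scale, wire over blood (SE 0.938), and missed the threshold at an adjusted p of 0.151. Across all genes tested in that comparison, 0.0486% were called. At an unadjusted p under 0.05 the members numbered 1 (SELP), against 4.4% of all genes. DESeq2, which called 1.49% of all genes, called 1 member, SELP, at 4.09 with an adjusted p of 0.00311. Limma voom, which called 1.33% of all genes, called 0 members. Without wires 2 and 3, 2 members passed by edgeR, in a fit that called 5.03% of all genes. They were SELP at 2.75 (adjusted p = 0.00489) and VCAM1 at 5.21 (adjusted p = 3.91e-09). Wires 2 and 3 held no VCAM1 count and were left out after the values were seen, so this VCAM1 call is not independent support. The wires left, 1 and 4, both came from pig 243K. With all wires VCAM1 stood at 4.28 (SE 3.47) and was not called.

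Platelet markers moved with SELP. The platelet list, with 8 of its 11 genes in the table, summed to 2049 to 10190 CPM in the wires. The same sum was 69.0 to 84.8 CPM in aorta, 175 to 480 CPM in blood and 35.8 to 11190 CPM in the microbrush libraries. Between wire and aorta, 5 of the 7 platelet genes tested were called higher in wire, beside 2.8% of all genes. Across the 20 libraries, SELP and the summed platelet list correlated on the log2(CPM + 1) scale with a Pearson r of 0.898 and a Spearman rho of 0.893. The libraries share depth and scaling, and several share a pig. Per 100 CPM of the platelet list, SELP stood at 1.61 to 4.28 CPM in the wires and 0.414 to 9.13 CPM in the microbrush libraries. The same ratio was 2.06 to 17.5 in aorta and 4.02 to 4.24 in blood. In aorta it rests on 5 to 61 SELP counts per library. The platelet sum there was about that of kidney tubule and podocyte markers, 66.4 to 91.8 CPM. The ratio in aorta therefore cannot show whether wires and aorta differed in SELP relative to platelet RNA. The part of platelet RNA in the SELP difference was not tested.

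The genes whose pattern over the 20 libraries was most like that of SELP, among 12711 genes with a symbol and counts in at least 15 libraries, were ITGB3 (r = 0.931), MGST1 (r = 0.928) and CLEC1B (r = 0.925). ITGB3, a subunit of the platelet fibrinogen receptor, and CLEC1B, a platelet receptor, both stand on the platelet list. The sum of the endothelial list, with 13 of its 16 genes in the table, correlated with SELP at an r of 0.741 over the same libraries. SELP and VCAM1, both used by activated endothelium, had an r of 0.0179 over the 20 libraries and 0.464 over the 10 microbrush libraries.

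**Figure D2:**
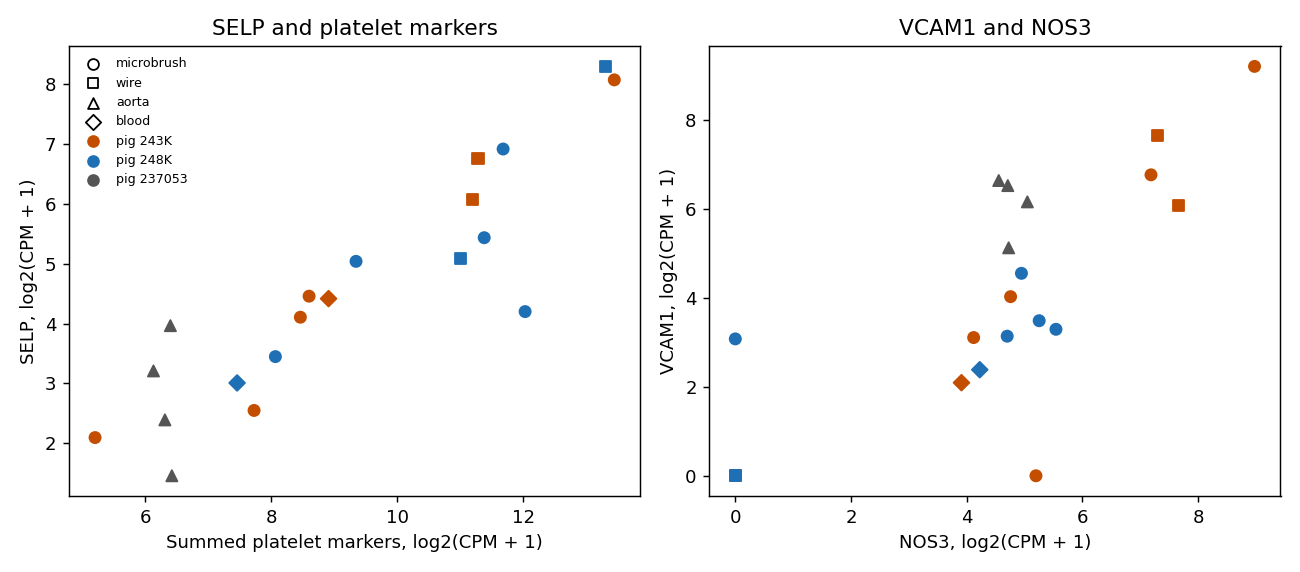
Left, SELP against the summed platelet markers. Right, VCAM1 against NOS3. All axes are log2(CPM + 1), each point is 1 of 20 libraries, shapes give the group and colours the pig. SELP rises with the platelet sum over the catheter libraries, and the 4 libraries with the highest VCAM1 outside aorta, all of pig 243K, are also the 4 with the highest NOS3. NOS3 was singled out after its values were seen. Of their top 4 catheter libraries, KDR shared 1 and PECAM1 shared 2 with VCAM1.

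VCAM1 encodes the adhesion molecule bound by the leukocyte integrin that contains ITGA4. Its level was high in aorta, low in blood and scattered from 0 to high on both catheter devices. The 4 aorta libraries held 70.5, 98.7, 33.9 and 91.1 CPM, and bloods 1 and 3 held 3.27 and 4.22 CPM, so these groups did not overlap. Wires 1 and 4, of pig 243K, held 200 and 66.6 CPM. Wires 2 and 3, of pig 248K, held no count, which allows up to 1.25 and 0.559 CPM. Microbrush 6 held 589 CPM and microbrush 9 held 107.9 CPM, both from the liver of pig 243K. The other 8 microbrush libraries held between 0 (microbrush 5) and 22.5 CPM (microbrush 1), all below every aorta library. The means were 77.7 ± 183 CPM for the microbrush (median 9.51), 66.7 ± 94.3 for the wire, 73.5 ± 29.0 for aorta and 3.74 ± 0.678 for blood.

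ICAM1 encodes the ligand of the leukocyte integrins that contain ITGB2, and its order among the catheter libraries was close to that of VCAM1. The aorta libraries held 39.1, 38.1, 29.1 and 43.5 CPM, and the blood libraries 14.3 and 17.1 CPM. Wires 1 and 4 held 41.7 and 29.3 CPM, while wires 2 and 3 held 1.67 and 4.85 CPM. Microbrush 6 held 190 CPM and microbrush 9 held 25.8 CPM. The remaining microbrush libraries ran from 0 in microbrush 4 to 16.3 CPM in microbrush 1. The means were 30.1 ± 56.6 CPM for the microbrush (median 12.7), 19.4 ± 19.3 for the wire, 37.5 ± 6.01 for aorta and 15.7 ± 1.99 for blood. ICAM1 did not overlap between aorta and blood, and overlapped in every other pair of groups.

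Among the 14 catheter libraries (microbrush and wire), the 4 with the highest VCAM1 were microbrush 6, wire 1, microbrush 9 and wire 4. The same 4 were the highest for ICAM1. They were also the highest for NOS3, which encodes endothelial nitric oxide synthase, and for CDH5, which encodes VE-cadherin of endothelial junctions. These 2 markers were singled out after their values were seen. NOS3 stood at 503, 156, 145 and 201 CPM in those 4 libraries and at 0 to 45.6 CPM in the other 10. EMCN, another endothelial marker, stood at 4.19, 0.772, 4.58 and 20.7 CPM in the same 4 libraries, and at 13.0 CPM in microbrush 7 and 8. The top 4 of KDR, the receptor for vascular endothelial growth factor, shared 1 library with those of VCAM1, and the top 4 of PECAM1, an endothelial and platelet adhesion molecule, shared 2. All 4 libraries came from pig 243K, 2 by each device and 3 of 4 from the liver. Across the 20 libraries VCAM1 and ICAM1 correlated with an r of 0.765 and a rho of 0.821, and within the 10 microbrush libraries with 0.664 and 0.733.

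Per 100 CPM of the summed endothelial list, VCAM1 stood at 13.2 to 37.8 CPM in aorta, 0 to 21.4 in the microbrush libraries, 0 to 22.1 in the wires and 1.22 to 1.47 in blood. For ICAM1 the same ratio was 11.4 to 18.0 in aorta and at most 6.9 in the microbrush libraries, so those groups did not overlap on it. It was 0.357 to 4.61 in the wires and 5.36 to 5.94 in blood. The endothelial sum itself was 294 to 2753 CPM in the microbrush libraries, 347 to 1358 in the wires, 241 to 304 in aorta and 267 to 288 in blood. Its range in blood thus lay within that in aorta, and its genes did not move together. In wire 3 KDR stood at 634.5 CPM and PECAM1 at 436.4 with NOS3 at 0. In microbrush 9 KDR stood at 0.16 CPM with NOS3 at 145. These ratios are therefore not levels per endothelial cell. Smooth muscle markers, the genes of the contractile vessel wall, summed to 24920 to 55930 CPM in aorta, 527 to 107600 in the microbrush libraries, 534 to 1568 in the wires and 122 to 211 in blood. Smooth muscle cells can also carry VCAM1 and ICAM1, and their part in these levels was not tested.

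The genes most like VCAM1 over the 20 libraries were CGNL1 (r = 0.915), ACE (r = 0.915) and COL14A1 (r = 0.881). Those most like ICAM1 were ACE (r = 0.898), ACVR1B (r = 0.897) and ABCC3 (r = 0.893). ACE encodes the angiotensin-converting enzyme on the surface of endothelial cells.

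NFKBIA was counted in all 20 libraries. The microbrush libraries ranged from 10.8 CPM in microbrush 10 to 186 CPM in microbrush 1, with a median of 41.9. Wires 1 to 4 held 89.6, 25.0, 141 and 55.7 CPM, and the aorta libraries 28.5, 25.4, 41.9 and 47.2 CPM. Bloods 1 and 3 held 93.2 and 42.9 CPM. The groups overlapped in every pair. The means were 72.5 ± 64.0 CPM for the microbrush, 77.9 ± 49.9 for the wire, 35.7 ± 10.4 for aorta and 68.1 ± 35.5 for blood.

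NFKBIA also moved with the size of the library. Its level correlated with the log10 total count at an r of 0.775 and a rho of 0.689 over the 20 libraries, and at 0.799 and 0.855 over the 10 microbrush libraries, although levels are divided by library size. The 3 largest microbrush and wire libraries, wire 3, microbrush 6 and microbrush 9, held 141, 156 and 81.1 CPM. The part of library size in the NFKBIA levels was not tested. Among the genes most like NFKBIA were DNM2 (r = 0.911) and PBX2 (r = 0.906). DNM2 encodes a dynamin that cuts endocytic vesicles from the membrane.

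CCL2 encodes the chemokine that draws monocytes, and aorta held more of it than any other library. The aorta libraries held 6.98, 6.94, 7.42 and 11.4 CPM, on 14 to 29 counts each. The highest microbrush library, microbrush 9, held 6.87 CPM on 42 counts, just under the lowest aorta library. The other 9 microbrush libraries held 0 to 2.70 CPM, with 0 in microbrush 4 and 5. Wires 1 and 4 held 2.57 and 5.17 CPM and wires 2 and 3 none, and the blood libraries held 1.51 and 1.64 CPM. The means were 1.93 ± 1.98 CPM for the microbrush, 1.94 ± 2.47 for the wire, 8.20 ± 2.18 for aorta and 1.57 ± 0.0958 for blood.

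IL6 stood at 3.66 to 6.63 CPM in aorta, and its levels on the devices fell into libraries at about the aorta level and libraries at 0. Microbrush 1, 2, 3, 7, 8 and 10 held 3.87 to 7.66 CPM, on 10 to 19 counts each. Microbrush 4, 5 and 6 held 0 and microbrush 9 held 0.82 CPM. Wires 1 and 4 held 6.69 and 5.74 CPM, and wires 2 and 3 none. Bloods 1 and 3 held 1.51 and 5.40 CPM. The means were 3.55 ± 3.03 CPM for the microbrush, 3.11 ± 3.61 for the wire, 5.02 ± 1.22 for aorta and 3.45 ± 2.75 for blood, and all groups overlapped.

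CXCL8, the neutrophil chemokine, was counted at 25 or fewer counts in every library. It ranged from 0 to 5.87 CPM in the microbrush libraries, where microbrush 3 was highest and microbrush 4, 5 and 6 held none. Wire 3 held 4.66 CPM on 25 counts and the other 3 wires held none. Aorta held 0.70, 0.96, 2.65 and 0.46 CPM and blood 1.51 and 0.94 CPM. The means were 1.70 ± 2.05 CPM for the microbrush, 1.17 ± 2.33 for the wire, 1.19 ± 0.994 for aorta and 1.22 ± 0.402 for blood, with overlap in every pair of groups.

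Over the 20 libraries the number of genes with a count correlated with IL6 at an r of 0.796, with CCL2 at 0.618 and with CXCL8 at 0.32. Wire 3, with the most CXCL8 counts, was among the libraries with few genes detected. IL6 also correlated with the sum of the kidney tubule and podocyte list, genes of kidney epithelium, at an r of 0.770. That sum was 66.4 to 91.8 CPM in aorta, 35.7 to 67.2 in blood, 0 to 106.8 in the microbrush libraries and 0 to 97.9 in the wires. The hepatocyte list gave 132 to 185 CPM in aorta and 64.3 to 149 in blood. In the 14 libraries with a count in at least 6 of the 8 kidney genes, IL6 and CCL2 had a count in 13 and CXCL8 in 12. In the other 6 libraries the numbers were 2, 3 and 2. The level of each of these 3 genes in aorta and blood therefore lies in libraries where genes of unrelated epithelia were counted too. So do the levels of the other members. In bloods 1 and 3, ALB of the hepatocyte list stood at 8.79 and 15.5 CPM. VCAM1 stood at 3.27 and 4.22 CPM there and ICAM1 at 14.3 and 17.1 CPM. How far this applies to any member was not tested. The genes most like IL6 were PLAUR (r = 0.976), SLC24A4 (r = 0.976) and DISP2 (r = 0.974). Among those most like CCL2 were PREX2 (r = 0.903) and SFRP1 (r = 0.901). Those most like CXCL8 were FBXO45 (r = 0.715), AP1S3 (r = 0.711) and TPMT (r = 0.688).

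**Figure D3:**
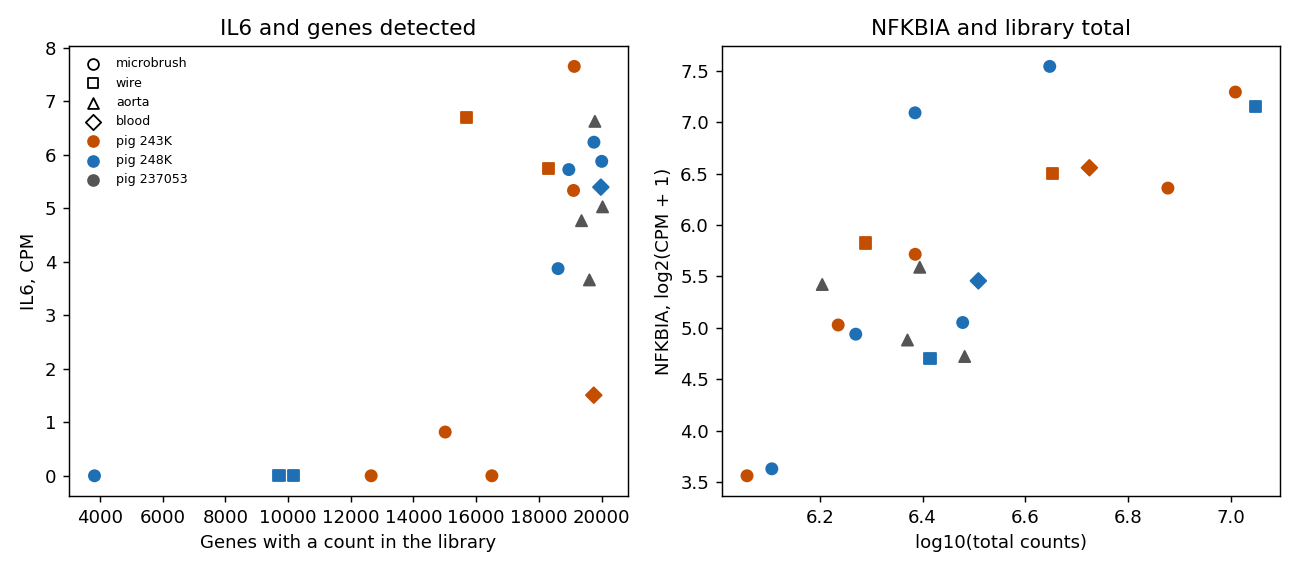
Left, IL6 in CPM against the number of genes with a count. Right, NFKBIA as log2(CPM + 1) against the log10 of the library's total count. Each point is 1 of 20 libraries, with shapes for groups and colours for pigs. Wires 2 and 3 and microbrush 4, 5 and 6 lie at 0 for IL6, and NFKBIA is higher in larger libraries.

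Microbrush and wire were compared to ask what the brush collects beyond a bare wire. No member was called between them: 0 of 6 tested by edgeR, 0 at an unadjusted p under 0.05, 0 by DESeq2 and 0 by limma voom. Of all genes, edgeR called 0%, DESeq2 0.614% and limma voom 0%. SELP came nearest, at −1.43 (SE 0.866, adjusted p = 1). ICAM1 stood at 0.78 (SE 1.14) and NFKBIA at −0.22 (SE 0.803). VCAM1 stood at 0.43 (SE 1.4), which turned to −0.18 with RLE scaling. CCL2 stood at 0.09 and IL6 at 0.14. The SEs of SELP, ICAM1, NFKBIA and VCAM1 were 0.803 to 1.4, and differences far above that size were also missed by edgeR. MYH11 stood at 6.06 (SE 1.7, adjusted p = 0.502) and HBB at −3.77 (SE 0.955, adjusted p = 0.392). The 0 calls therefore do not show that the members were at equal levels on brush and wire.

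Values within each pig and organ follow; differences between pigs or organs were not tested. Within pig 243K the differences were 0.03 for SELP, 0.56 for VCAM1, 0.93 for ICAM1, 0.17 for NFKBIA, −0.49 for CCL2 and −1.10 for IL6. Within pig 248K SELP stood at −2.01, ICAM1 at 1.67 and NFKBIA at −0.20. VCAM1, IL6 and CCL2 were at 0 in wires 2 and 3, the 2 wires of that pig, so no value without them can be given. The mean of the per-library floors of 3 counts of these wires was 0.905 CPM. The mean of the 5 microbrush libraries of pig 248K was 12.5 times that for VCAM1 (11.4 CPM). For IL6 it was 4.8 times (4.34 CPM) and for CCL2 1.59 times (1.43 CPM), with microbrush 4 at 0 for both. The floor covers counting error only. Wires 2 and 3 had a count in 9714 and 10165 genes, with NOS3 and EMCN also at 0, so these values set no lower bound on a difference. VCAM1 and IL6 both missed the threshold, with an adjusted p of 0.108 by edgeR. In kidney libraries alone VCAM1 stood at −1.51 and ICAM1 at −0.22, and in liver libraries alone at 0.54 and 1.03. Without microbrush 6 the pooled differences turned to −1.68 for VCAM1 and −0.66 for ICAM1. Without wires 2 and 3 they turned to −0.77 and −0.23, and IL6 turned to −0.81.

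Between microbrush and aorta, edgeR called 0 of the 6 genes tested, against 0.125% of all genes (0.0596% higher and 0.0656% lower in the microbrush libraries). At an unadjusted p under 0.05 there were 2, SELP and CCL2, against 4.8% of all genes. SELP stood at 3.14, microbrush over aorta (SE 1.14, adjusted p = 0.525), and CCL2 stood at −1.98 (SE 0.949, adjusted p = 1). NFKBIA stood at 1.20 (SE 0.807) and IL6 at −0.51. VCAM1 stood at 0.50 (SE 1.18), which became −0.60 with RLE scaling and −1.82 without microbrush 6. ICAM1 stood at 0.04 (SE 0.987), which became −0.84 with RLE scaling and −1.60 without microbrush 6. DESeq2 called 0 members, where it called 1.26% of all genes. Limma voom, with a quality weight per library, called 4, where it called 4.51% of all genes. In voom SELP was higher in the microbrush libraries at 2.20 (adjusted p = 0.0389). VCAM1 at −2.73 (adjusted p = 0.00122), ICAM1 at −1.73 (adjusted p = 7.33e-04) and CCL2 at −2.19 (adjusted p = 0.00166) were lower.

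Between microbrush and blood, edgeR called 0 of the 7 genes tested, against 0.0168% of all genes. DESeq2 and limma voom also called 0 members, against 1.7% and 6.07% of all genes. At an unadjusted p under 0.05 there was 1, VCAM1, at 4.99 (SE 2.31, adjusted p = 1), against 3.76% of all genes. SELP stood at 2.47 (SE 1.49), ICAM1 at 1.496 (SE 1.5) and NFKBIA at 0.48. CXCL8 stood at 0.67, CCL2 at 0.56 and IL6 at 0.22. Without microbrush 6 ICAM1 turned to −0.43.

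Aorta and blood were the pair with the most calls, 28.5% of all genes tested by edgeR, with 9.82% called higher in aorta and 18.7% lower. Of the 6 members tested, 4 were called. VCAM1 was 4.24 higher in aorta (SE 0.563, adjusted p = 2.73e-12), CCL2 was 2.29 higher (SE 0.77, adjusted p = 0.013) and ICAM1 was 1.20 higher (SE 0.472, adjusted p = 0.0397). NFKBIA was 1.02 log2 units higher in blood (−1.02 as aorta over blood, SE 0.415, adjusted p = 0.0492). SELP stood at −0.96 (adjusted p = 0.202) and IL6 at 0.52. With RLE scaling the NFKBIA call was lost, at −1.06 with an adjusted p of 0.053, leaving 3 calls higher and none lower. That fit called 28.4% of all genes.

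The blood group here was 2 libraries, and most of these calls rested on few of them. VCAM1 stayed called without each library in turn, at 4.06 to 4.45. The ICAM1 call was lost without any of the 6 libraries, at 1.10 to 1.28 with adjusted p-values of 0.0512 to 0.18. The CCL2 call was lost without blood 1, with an adjusted p of 0.0974. NFKBIA ranged from −1.54 to −0.32 and lost its call in 4 of the 6 fits. SELP ranged from −1.64 without blood 3, where it was called (adjusted p = 0.0258), to 0.05 without blood 1. With blood 2 included VCAM1 stood at 4.39 and missed the threshold (adjusted p = 0.106), and 0 members were called. That fit called 1.49% of all genes.

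**Figure D4:**
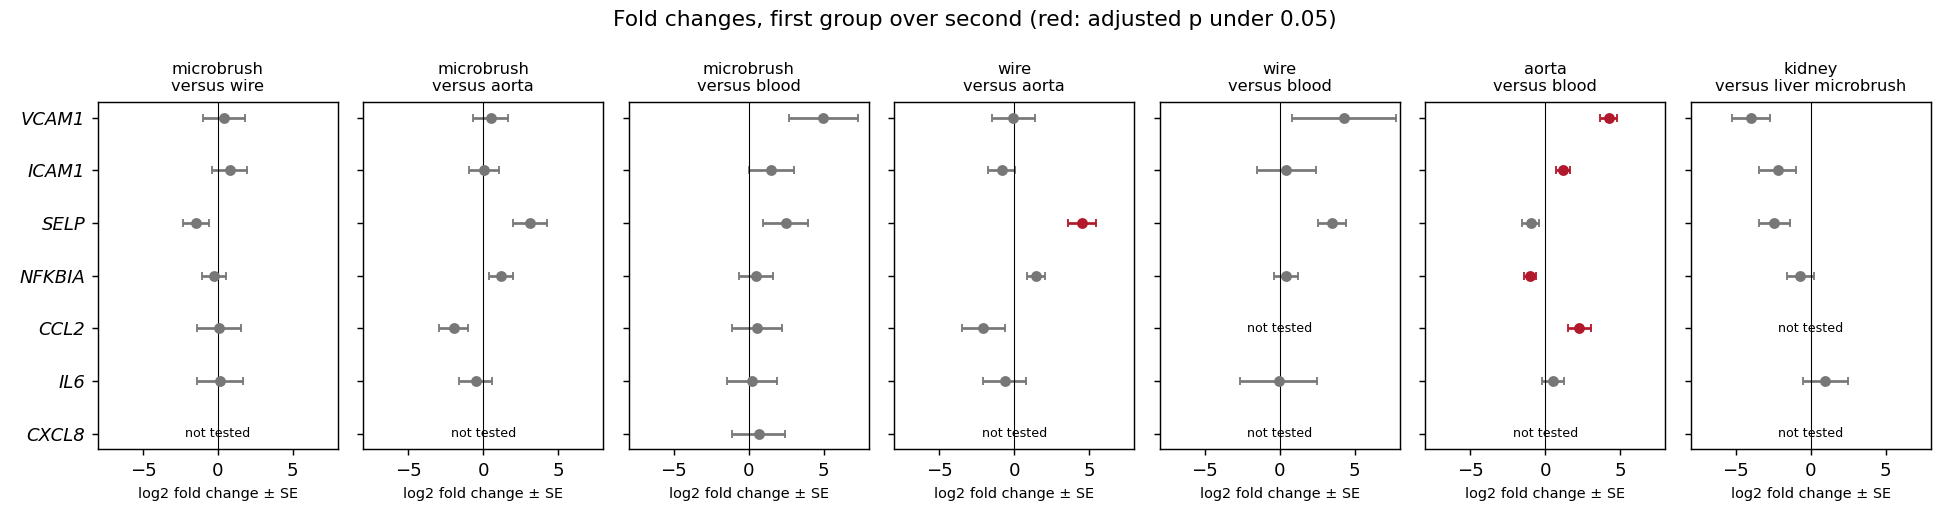
Log2 fold changes of the 7 genes in 7 comparisons, first group over second, with bars of 1 SE; red points have an adjusted p under 0.05. Calls are SELP between wire and aorta, and VCAM1, ICAM1, NFKBIA and CCL2 between aorta and blood. The sign turned with RLE scaling for VCAM1 between microbrush and wire, for VCAM1 and ICAM1 between microbrush and aorta and for IL6 between wire and blood.

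The remaining members between wire and aorta missed the threshold. NFKBIA stood at 1.42 (SE 0.601, adjusted p = 0.337), CCL2 at −2.05 (SE 1.44), ICAM1 at −0.85 (SE 0.904), IL6 at −0.63 and VCAM1 at −0.05. CCL2 did not overlap between these groups, with a highest wire of 5.17 CPM and a lowest aorta of 6.94 CPM. Between wire and blood VCAM1 stood at 4.28 (SE 3.47), and NFKBIA and ICAM1 both at 0.43. IL6 stood at −0.07, which became 0.20 with RLE scaling.

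Kidney and liver microbrush libraries were compared to ask whether the organ sampled changes what the brush collects. Of the 5 members tested, 0 were called by edgeR, against 0% of all genes. DESeq2 and limma voom also called 0 members, against 0.44% and 0% of all genes. At an unadjusted p under 0.05 there were 2, VCAM1 and SELP, against 1.59% of all genes. VCAM1 averaged 10.8 ± 8.47 CPM in kidney and 145 ± 252 CPM in liver (n = 5 each), with a log2 difference of −3.98 (SE 1.28, adjusted p = 1). SELP averaged 18.8 ± 14.4 and 88.0 ± 110 CPM, a difference of −2.41 (SE 1.06). ICAM1 averaged 12.3 ± 3.47 and 47.9 ± 80.0 CPM, a difference of −2.21 (SE 1.21). NFKBIA stood at −0.69 and IL6 at 0.98. All of these ranges overlapped between the organs.

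For VCAM1, ICAM1 and NFKBIA the sign of the organ difference was not shared by both pigs. Within pig 243K, with 3 kidney and 2 liver libraries, VCAM1 stood at −5.93 (adjusted p = 0.0602), ICAM1 at −3.84 (adjusted p = 0.051) and SELP at −3.77 (adjusted p = 0.118). In that fit 901 genes were called, 5.55% of all genes. Within pig 248K, with 2 kidney and 3 liver libraries, VCAM1 stood at 0.88, ICAM1 at 0.95, NFKBIA at 0.58 and SELP at −1.10, each with an adjusted p of 1. The difference between the pigs was not tested. With the pig as a block, VCAM1 stood at −2.42, SELP at −2.33 and ICAM1 at −1.35, each with an adjusted p of 0.999. Platelet markers summed to 778 ± 1061 CPM in kidney and 3872 ± 4448 CPM in liver microbrush libraries, and their part in the SELP values was not tested.

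The NF-kappa-B pathway genes that act around NFKBIA were followed from a list of 28, of which 25 were in the table. Between aorta and blood, 12 of the 25 were called lower in aorta and none higher, where 18.7% of all genes were called lower. The list's median was −1.07, against 0.15 over all genes tested. IRF1, an interferon regulatory factor induced through NF-kappa-B, was 3.89 lower in aorta (−3.89, SE 0.511, adjusted p = 1.61e-12), at 23.9 ± 7.78 CPM in aorta and 337 ± 192 CPM in blood. NFKB1 stood at −2.89 (SE 0.425, adjusted p = 3.34e-10) and REL at −3.09 (adjusted p = 1.04e-09). Both encode DNA-binding subunits. The other genes called lower were BIRC3, BCL3, NFKBIE, CYLD, TNFAIP3, SOD2, IRAK1, NFKBIZ and TNIP2. Without blood 1 the number called lower was 4, and with blood 2 included it was 0. The fit with blood 2 called 1.49% of all genes in either direction. T and natural killer cell markers summed to 873 to 1697 CPM in blood and 124 to 223 CPM in aorta. The part of these cells in the values of the pathway genes was not tested.

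**Figure D5:**
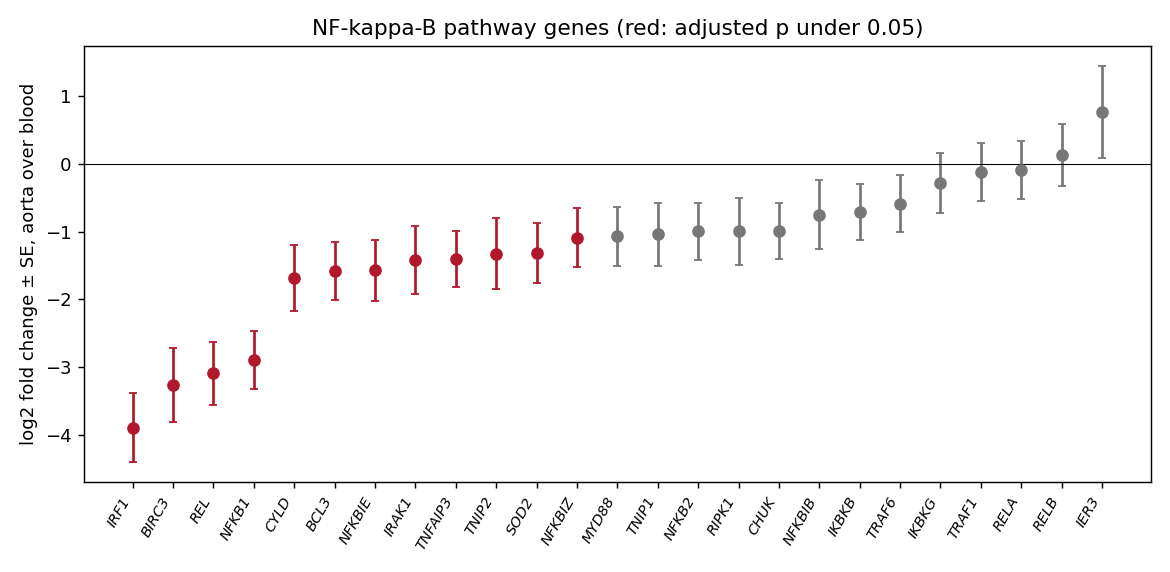
Log2 fold change, aorta over blood, of 25 NF-kappa-B pathway genes on the y axis, ordered by size along the x axis, with bars of 1 SE; red points have an adjusted p under 0.05. The 12 called genes all lie below 0, from IRF1 at −3.89.

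In the list of inducers and receptors, 12 of 13 genes in the table were tested between aorta and blood, and 1 was called higher and 5 lower. Of all genes tested, 9.82% were called higher in aorta, near the share in this list, and 18.7% lower. IL1R1, the interleukin 1 receptor of stromal and endothelial cells, was 2.40 higher in aorta (SE 0.492, adjusted p = 1.2e-05). IL6R, the receptor of IL6, stood at −2.58 (SE 0.437, adjusted p = 7.01e-08). SOCS3, a feedback inhibitor of IL6 signalling, stood at −2.28 (SE 0.427, adjusted p = 1.38e-06). Of 12 other chemokines and cytokines tested, none was called higher and 2 lower, a share near the 18.7% of all genes called lower. CCL5, a T cell chemokine, stood at 2.16 ± 1.74 CPM in aorta and 77.8 ± 47.0 CPM in blood, a difference of −5.22 (SE 0.499, adjusted p = 4.82e-23). CXCL10, an interferon-induced chemokine, stood at −2.12 (SE 0.511, adjusted p = 2.54e-04).

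Among 11 other adhesion genes of endothelium, 3 were called higher and 1 lower in aorta, beside 9.82% and 18.7% of all genes. MCAM, an adhesion molecule of endothelium and smooth muscle, was at 364 ± 206 CPM in aorta and 21.8 ± 9.97 CPM in blood, 3.97 higher (SE 0.696, adjusted p = 2.02e-07). CD99L2 was 2.10 higher (adjusted p = 0.00674) and JAM3, a junctional adhesion molecule, 1.55 higher (adjusted p = 0.00738). The leukocyte genes that meet these molecules were counted from a list with 12 of 19 genes in the table. Of these, 9 were called lower in aorta and none higher, with a median of −2.38. ITGA4, the integrin subunit that binds VCAM1, was at 9.54 ± 1.33 CPM in aorta and 428 ± 284 CPM in blood, a difference of −5.58 (SE 0.56, adjusted p = 6.77e-21). ITGB7, a partner of ITGA4, stood at −3.44 (SE 0.437, adjusted p = 2.67e-13). ITGB1, another integrin subunit on the list, stood at 0.37 and was not called (SE 0.581, adjusted p = 0.669). With blood 2 included, none of the 9 was called, in a fit that called 1.49% of all genes.

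Between wire and aorta few companions were called, and none was called between microbrush and wire, microbrush and aorta, microbrush and blood, wire and blood or the 2 organs. In the NF-kappa-B list IRF1 was 3.06 higher in wire (SE 0.652, adjusted p = 0.0278), and in the list of inducers SOCS3 was 2.17 higher (SE 0.529, adjusted p = 0.0478). In the adhesion list PECAM1 was 2.88 higher (SE 0.572, adjusted p = 0.02) and F11R, a junction molecule that platelets also carry, 4.68 higher (SE 1.06, adjusted p = 0.0359). Of the leukocyte list 3 of 12 were called higher. Of all genes tested between wire and aorta, 2.8% were called higher in wire. FERMT3, which activates integrins in platelets and leukocytes, stood at 751 ± 557 CPM in the wires and 21.7 ± 3.76 CPM in aorta, 5.45 higher (SE 0.735, adjusted p = 0.0052). ITGA4 was 4.17 higher (SE 0.622, adjusted p = 0.0068) and ITGB7 2.92 higher (SE 0.588, adjusted p = 0.0212). FERMT3 alone of these 7 kept its call without each library in turn, and SOCS3 lost it in every such fit. Those fits called 0.399 to 9.55% of all genes. Without wires 2 and 3 together, all 7 were called, at 1.71 to 4.20 with adjusted p-values of at most 0.032, in a fit that called 8.47% of all genes; 7 of the 12 leukocyte genes and 3 of 12 chemokines were then called higher. Red cell markers summed to 2373 to 35160 CPM in the wires and 110 to 146 CPM in aorta, beside the platelet sums above, and their part was not tested.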

How the data were processed

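Per the labels' protocols, the RNAdvance Tissue kit, scaled down in volume, gave the total RNA, and SMARTer Pico was used for library preparation. Salmon, DESeq2 and Sscrofa11.1 are named in the submitters' processing notes; versions and strand setting are not given in the sources used here. The authors deposited estimated counts per gene, not scaled between samples, of which 11.9% were not whole; they were rounded for the tests. Symbols for 14692 of 24358 genes came from a supplied list, and coordinates from RefSeq.

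Groups, organs and pigs come from the labels; library numbers follow deposit order and pair nothing. Each of 7 comparisons was fitted on its own libraries of at least 100000 counts with edgeR 4.0.16 in R 4.3.3. Settings were filterByExpr at a minimum count of 10, TMM and a robust quasi-likelihood test. The fit was also run on simulated counts with a fixed spread and, apart from the changed genes, the same composition in every library. That run does not show how the fit performs on libraries as scattered as these. The SE is the absolute log2 fold change divided by the square root of the F statistic. Alternatives were RLE scaling, DESeq2 1.42.0, limma 3.58.1 (voom with quality weights), other filters (none, and 50 counts), 2 abundant identifiers left out, a common fit, blood 2 included, libraries left out, the pig as a block, and each organ or pig alone. Leaving out each microbrush library, and wires 2 and 3, was chosen after seeing the data. Limits of 3 counts for a count of 0 cover counting error only.

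All members are named in each comparison. From each companion list up to 3 genes with the smallest p among those called are named, other called NF-kappa-B genes by symbol, and per member the 3 genes with the highest Pearson correlation of log2(CPM + 1). The members, lists and markers were chosen with earlier results of these data known. A few genes that these rules name are not reported here. No 2 libraries of a group were copies.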

Additional observations from a re-analysis of the deposited data

Results flagged for a closer look

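In 21 combinations of gene and group of 4 to 10 libraries, 2 held a library farther from the rest than Dixon's test allows at the 95% level, and chance alone flags about 1 in 20 such groups. CXCL8 stood at 4.66 CPM in wire 3, on 25 counts (Wilson 95% interval 3.16 to 6.88 CPM, for counting error only), while the other 3 wires held no count. CCL2 stood at 11.4 CPM in aorta 4, on 25 counts (7.75 to 16.9 CPM), while the other aorta libraries held 6.94 to 7.42 CPM. The interval of aorta 4 overlapped those of aorta 1 (4.52 to 10.8 CPM), aorta 2 (4.84 to 9.97 CPM) and aorta 3 (4.42 to 12.5 CPM).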

How the results depend on the processing

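Of 782 log2 fold changes of members recomputed under an alternative, 82 turned sign; none of these was of a called change, and 2 were called in the alternative (VCAM1 and ICAM1 between microbrush and aorta by limma voom). RLE scaling moved the median over all genes from 0.17 to 0.59 between microbrush and wire, from −0.17 to −0.33 between microbrush and aorta, from 0.13 to 0.69 between microbrush and blood, from −0.30 to −0.54 between wire and aorta, from −0.34 to 0.08 between wire and blood and from 0.50 to 0.83 between the organs.

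The number of members called moved as follows. Between microbrush and aorta it was 0, and 4 by voom, which called 4.51% of all genes. Between wire and aorta it was 1, where 3.57% of all genes were called. It was 0 in the common fit (0.746% of all genes) and 0 to 1 over libraries left out in turn (0.399 to 9.55%). Between wire and blood it was 0 (0.0486% of all genes), 1 by DESeq2 (1.49%) and 2 without wires 2 and 3 (5.03%). Between aorta and blood it was 4, where 28.5% of all genes were called. It was 2 without a filter (22.5% of all genes), 2 at a minimum count of 50 (37.8%) and 1 by voom (18.9%). It was 0 in the common fit (0.532%) and 0 with blood 2 included (1.49%). The calls also moved with libraries left out in turn, as given above. With the pig as a replicate block the number was 0 in each of the 4 comparisons where pigs are shared, as without it.

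Signs that turned between microbrush and wire were VCAM1 (RLE −0.18, DESeq2 −0.18, voom −2.32, kidney −1.51, without wires 2 and 3 −0.77), ICAM1 (voom −1.27, kidney −0.22, without wires 2 and 3 −0.23) and CCL2 (voom −0.75, kidney −0.34, pig 243K −0.49, without wires 2 and 3 −0.97). So did NFKBIA (kidney 0.50, pig 243K 0.17), SELP (pig 243K 0.026) and IL6 (liver −0.47, pig 243K −1.10, without wires 2 and 3 −0.81). Between microbrush and aorta they were VCAM1 (RLE −0.60, DESeq2 −2.12, voom −2.73), NFKBIA (voom −0.33) and ICAM1 (RLE −0.84, abundant identifiers left out −0.041, no filter −0.31, minimum count of 50 −0.049, DESeq2 −1.69, voom −1.73, common fit −0.31). Between microbrush and blood they were IL6 (abundant identifiers left out −0.0021), NFKBIA (voom −1.03, without libraries under 5000 genes −0.057) and ICAM1 (voom −0.27). Between wire and aorta without wires 2 and 3 they were VCAM1 (0.90) and IL6 (0.32). Between wire and blood they were IL6 (RLE 0.20, voom 0.45, blood 2 included 0.42, without wires 2 and 3 0.81), and with the pig block VCAM1 (−2.14) and ICAM1 (−0.73). Between the organs, in pig 248K alone, they were NFKBIA (0.58), VCAM1 (0.88) and ICAM1 (0.95).

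Leaving out libraries in turn also turned signs. The ranges between microbrush and wire were −0.52 to 0.35 for NFKBIA, −1.68 to 2.14 for VCAM1, −0.66 to 1.52 for ICAM1, −0.39 to 1.13 for CCL2 and −0.27 to 0.93 for IL6. Between microbrush and aorta they were −1.82 to 0.70 for VCAM1 and −1.60 to 0.15 for ICAM1. Between microbrush and blood they were −0.37 to 1.08 for NFKBIA, −0.43 to 1.69 for ICAM1 and −0.44 to 1.20 for IL6. Between wire and aorta VCAM1 ranged from −1.76 to 0.37. Between wire and blood they were −0.12 to 0.99 for NFKBIA, −0.29 to 0.81 for ICAM1 and −0.83 to 1.36 for IL6. Between aorta and blood they were −1.64 to 0.051 for SELP and −0.12 to 1.59 for IL6. The cause of these moves was not tested, and the counts of CXCL8, IL6 and CCL2, at most 42 in a library, limit every value given for them.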
